A study of Homo sapiens with 4 samples.

Results

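Adhesion receptors and numbered GPR genes, most of them orphan receptors with no settled ligand, were examined in neuroblastoma cells depleted of SSRP1. The set holds every gene whose platform annotation symbol is ADGR with a letter and a number, or GPR with a number alone, without GPR83. It has 84 genes of the 14812 named on the array, 20 adhesion receptors and 64 GPR genes. The cells were BE(2)C, an established, clonal human line of neuroblastoma, the childhood tumour of the sympathetic nervous system. The SSRP1 siRNA group (2 samples) received siRNA against SSRP1 under 1 catalogue number, and the control siRNA group (2 samples) received non-targeting siRNA, both with a cationic lipid reagent. The labels name no other agent or modification in either group. RNA was taken 72 hours after transfection and hybridised to 1 whole-transcript array per sample. Whether replicates were grown as separate cultures is not stated in the labels, so the spread behind each p-value is that of these samples alone and could be technical.

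G protein-coupled receptors cross the plasma membrane with a bundle of helices and pass a signal from outside the cell to heterotrimeric G proteins. Those that couple to Gs raise cyclic AMP, those that couple to Gi lower it, and others act through phospholipase C or RhoA. Adhesion receptors carry a long extracellular part that binds matrix or neighbouring cells, and most cut themselves at a site close to the membrane, which leaves a tethered peptide able to activate the receptor. SSRP1 is a subunit of FACT, a histone chaperone that opens nucleosomes for passing polymerases and restores them afterwards.

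The siRNA target fell to 7.42 and 6.97 with SSRP1 siRNA, against 9.05 and 9.23 with control siRNA, on the log2 scale of the deposited values. Its log2 change was -1.95 ± 0.17 (SE, limma adjusted p = 0.0479), and the adjusted p lay between 0.241 and 0.599 without any 1 of the 4 arrays. Array medians over all 46255 probe sets ran from 3.37 to 3.42, and arrays correlated at 0.990 to 0.993 over them. A gene counts as measured here where a probe set carried its symbol in the annotation, which left 30420 of 46255 probe sets unnamed. The 10 measured of 13 sympathoadrenal markers, among them PHOX2A, GATA3 and DBH, all lay above the median of all genes. Their means were 6.52 to 10.7. Of these 10 markers 9 lay below 0, as did 51.7% of all genes. Their log2 changes ran from -0.77 (DBH) to 0.34 (CHGA), with a median of -0.21. CHGB (-0.01), GATA2 (-0.06) and ISL1 (-0.06) had overlapping arrays. The summed linear values of the 10 were 5026 and 5149 with SSRP1 siRNA, against 5719 and 5796 with control siRNA. In bulk samples such as these, fewer cells of a kind and less RNA per cell cannot be told apart. Of 7 measured endothelial markers 1 lay above that median, as did 1 of 5 leukocyte, 1 of 2 fibroblast and 2 of 5 Schwann and glial markers. The fibroblast sums were 391 and 332 with SSRP1 siRNA, against 205 and 126 with control siRNA. They came mostly from the matrix gene LUM (log2 change 1.20, limma adjusted p = 0.184), and the other fibroblast marker, DCN, had a change of -0.04. Of the 5 Schwann and glial markers 3 lay above 0 and 2 below, with a median log2 change of 0.04. The highest was S100B at 0.47 (limma adjusted p = 0.262), and SOX10, ERBB3, GFAP and MBP had overlapping arrays. The part of any marker list in the values below was not tested. With 4 arrays, their number sets how precise each value below can be.

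None of the 84 receptor genes passed limma's test at an adjusted p under 0.05, where 0.0945% of all genes did. The smallest adjusted p among them was 0.120, for ADGRG2. At an unadjusted p under 0.05 there were 9 receptor genes (10.7%), 2 higher (2.38%) and 7 lower (8.33%) with SSRP1 siRNA, against 12.6% of all genes, with 6.56% higher and 6.03% lower. The split was not stable. Lower genes outnumbered higher ones in each fit of all 4 arrays. They did not when SSRP1 siRNA replicate 1, SSRP1 siRNA replicate 2 or control siRNA replicate 1 was left out. After median centring there were 4 higher and 6 lower, in a fit where the share of all genes was 12.3%. With robust variances there were 2 higher and 7 lower (12.4% of all genes), and over all probe sets 1 higher and 6 lower (9.53%). Without control siRNA replicate 1 the count of 9 was 4, in a fit where the share of all genes was 8.26%. The SSRP1 siRNA and control siRNA arrays did not overlap for 34 receptor genes, 14 higher and 20 lower, where 44.3% of all genes did not overlap (21.8% higher and 22.5% lower). A log2 change of at least 1 in size was measured for 0 receptor genes and for 0.385% of all genes. Of the receptor genes 45 lay above 0 (53.6%) and 39 below, against 48.3% and 51.7% of all genes. Their median log2 change was 0.004, beside -0.007 over all genes, and the median size of the change was 0.12 in both. The values below describe single genes that did not pass the test.

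Most receptor probe sets were dim. The mean over the 4 arrays lay at or above the median of all genes (4.64) for 23 of 84 receptor genes (27.4%), for 8 of the 20 adhesion receptors and for 15 of the 64 GPR genes. Brightness also depends on the probes, so it does not order the genes by amount of transcript, and in a dim probe set background compresses a change. Among the 23 brighter genes 5 had an unadjusted p under 0.05 (21.7%), against 15.8% of all genes at or above the median. Among the 61 dimmer ones 4 did (6.56%), against 9.38% of all genes below it.

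**Figure D1:**
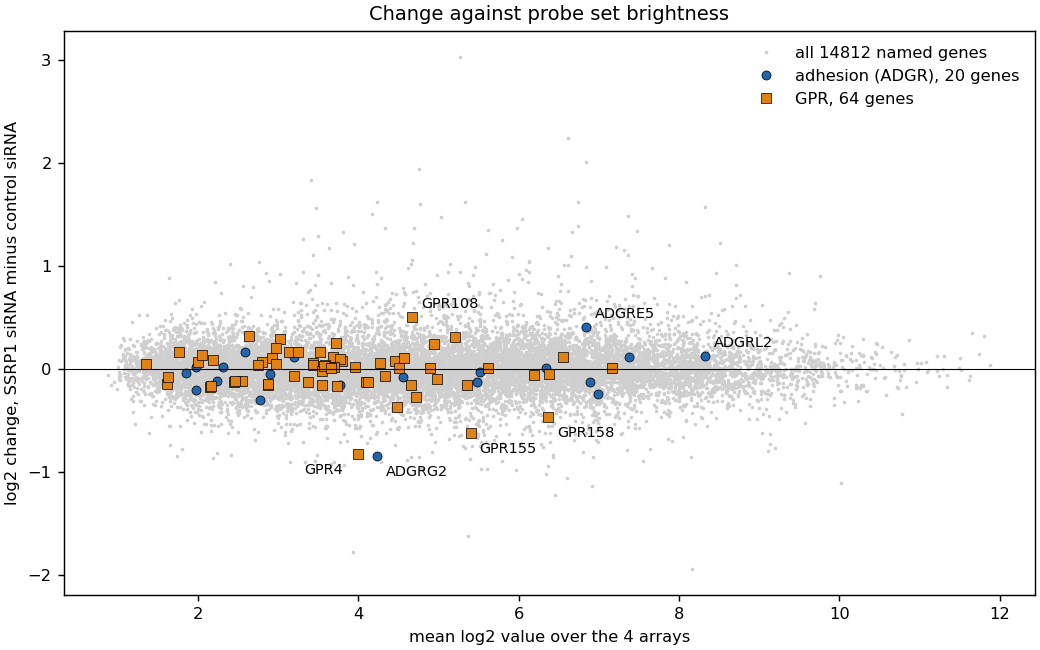
Log2 change (SSRP1 siRNA minus control siRNA, vertical axis) against the mean log2 value over the 4 arrays (horizontal axis) for each receptor gene, with all 14812 named genes in grey. ADGRG2 (-0.85) and GPR4 (-0.83) are the lowest receptor genes and GPR108 (0.50) the highest, and most of the others lie inside the grey band around 0.

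Among adhesion receptors, ADGRG2 stood lowest. ADGRG2, a receptor of the epididymis needed for fluid uptake in the male ducts, had log2 values of 3.95 and 3.67 in SSRP1 siRNA cells, against 4.72 and 4.59 in control siRNA cells. Both SSRP1 siRNA arrays lay below both control arrays. The mean over the 4 arrays, 4.23, lay below the median of all genes. The group means were 3.81 ± 0.20 with SSRP1 siRNA and 4.65 ± 0.09 with control siRNA (SD, n = 2 each). The log2 change was -0.85 ± 0.13 (SE), or 0.556 times the level with control siRNA (95% interval 0.444 to 0.696). Its unadjusted p was 0.00077, rank 95 of all genes, and its limma adjusted p of 0.120 did not pass. The change lay between -0.99 and -0.71 without any 1 array. With a variance trend, which lets the expected spread vary with brightness, the limma adjusted p was 0.0475, in a fit that called 1.45% of all genes. It was 0.0971 with a block for the replicate number and 0.335 over all probe sets. ADGRG2 passed in no other alternative that held it, and as a dimmer gene it was not in the fit of brighter genes.

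GPR4 was the other receptor gene with a change near that size. GPR4 senses extracellular protons and raises cyclic AMP through Gs, and it is best known from blood vessel endothelium. Its log2 values were 3.50 and 3.67 in SSRP1 siRNA cells, against 4.61 and 4.22 in control siRNA cells. Again the groups did not overlap, and the control arrays were the more spread of the pair, at 0.12 (SD, n = 2) with SSRP1 siRNA and 0.27 (SD, n = 2) with control siRNA. The log2 change was -0.83 ± 0.16 (SE), or 0.563 times the level with control siRNA (95% interval 0.430 to 0.737, unadjusted p = 0.0021, adjusted p = 0.163). It was -0.64 without control siRNA replicate 1 and -1.02 without control siRNA replicate 2. The other measured proton sensors were dim, and both lay below 0. GPR132 had a log2 change of -0.16, with 2.81 and 2.78 in SSRP1 siRNA cells against 2.96 on both control arrays. GPR65 had a change of -0.12 with overlapping arrays, and its dimmer probe set had one of 0.01.

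Endothelial markers were set beside GPR4. Of the 7 measured, 5 lay above 0 and 2 below, with a median log2 change of 0.05. Their summed linear values were 200 and 132 with SSRP1 siRNA, against 112 and 119 with control siRNA. The brightest part of that sum was ESAM, a junction protein, at 6.94 and 5.97 in SSRP1 siRNA cells against 5.41 and 5.33 in control siRNA cells, a log2 change of 1.08 (adjusted p = 0.278).

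The promoters of ADGRG2, GPR4, GPR158 and GPR108, which with GPR155 are the 5 receptor genes of smallest p, are shown to set the sequence in front of these genes beside their values. Each is the stretch of 250 bases before the RefSeq start on GRCh38.p14, read 5′ to 3′ on the gene's own strand. ADGRG2 (chrX:19122469-19122718, minus strand), GPR4 (chr19:45602213-45602462, minus strand), GPR158 (chr10:25174751-25175000, plus strand) and GPR108 (chr19:6737581-6737830, minus strand, the first of its listed starts) follow in that order. Capitals mark the letters GGGCGG of a GC box and TATAAA of a TATA box, each on either strand.
ADGRG2: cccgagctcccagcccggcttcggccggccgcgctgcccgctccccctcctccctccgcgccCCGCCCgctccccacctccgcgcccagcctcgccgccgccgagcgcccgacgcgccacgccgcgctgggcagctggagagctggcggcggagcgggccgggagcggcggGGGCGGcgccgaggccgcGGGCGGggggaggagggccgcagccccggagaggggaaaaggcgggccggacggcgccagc
GPR4: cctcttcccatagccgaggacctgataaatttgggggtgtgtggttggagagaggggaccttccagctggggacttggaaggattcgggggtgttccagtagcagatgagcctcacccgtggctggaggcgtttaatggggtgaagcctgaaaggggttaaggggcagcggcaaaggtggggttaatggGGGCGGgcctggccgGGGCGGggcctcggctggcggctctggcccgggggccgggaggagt
GPR158: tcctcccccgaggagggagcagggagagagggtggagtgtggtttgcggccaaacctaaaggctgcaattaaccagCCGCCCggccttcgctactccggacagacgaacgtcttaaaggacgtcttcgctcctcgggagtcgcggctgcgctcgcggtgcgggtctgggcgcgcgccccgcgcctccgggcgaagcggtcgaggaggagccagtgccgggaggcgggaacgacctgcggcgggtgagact
GPR108: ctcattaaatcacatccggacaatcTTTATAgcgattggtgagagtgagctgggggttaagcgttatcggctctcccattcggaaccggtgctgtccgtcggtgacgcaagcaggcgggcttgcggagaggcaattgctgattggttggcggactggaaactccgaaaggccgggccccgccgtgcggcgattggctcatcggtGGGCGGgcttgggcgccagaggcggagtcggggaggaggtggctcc

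A GC box was found 3 times before ADGRG2, 2 times before GPR4 and 1 time each before GPR158 and GPR108. Such a box is common: 42.3% of 27305 RefSeq promoters of the same length, 1 per gene, hold one, and so do 33 of the 65 receptor genes with a promoter in the table (50.8%). The ADGRG2 stretch is 84.8% G and C with 42 CpG pairs, GPR4 64.8% with 12, GPR158 68.8% with 31 and GPR108 62% with 23, beside a median of 58% over all promoters. Letters of a TATA box occur only before GPR108 among these 4, on the opposite strand and 225 bases before the start, and in 11.1% of all promoters. The canonical E-box CACGTG, to which MYC proteins bind, is in none of the 4, in 6.49% of all promoters and before 1 receptor gene, GPR45. The cyclic AMP response element TGACGTCA is in none of the 4, in 1.77% of all promoters and before GPR3 and GPR6. None of these searched letters overlapped another in the 4 stretches. A match describes the letters only, and the 4 genes differ in the direction of their change.

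The remaining adhesion receptors are grouped by subfamily. In subfamily G, which includes receptors for matrix proteins, 5 of 6 genes lay below 0. ADGRG6, which Schwann cells need to myelinate, was dim, at 1.76 and 2.00 in SSRP1 siRNA cells against 2.10 and 2.06 in control siRNA cells. ADGRG1, a receptor of neural progenitors, had a log2 change of -0.13 with overlapping arrays, and ADGRG3, ADGRG4 and ADGRG7 lay between -0.06 and 0.02. Subfamily F was dim throughout. Its ADGRF1, a receptor for the fatty acid amide synaptamide, had 2.59 and 2.66 with SSRP1 siRNA, against 2.97 and 2.88 with control siRNA, a log2 change of -0.30 ± 0.10 (SE, adjusted p = 0.347), while ADGRF4 and ADGRF5 had changes of -0.12 and 0.17.

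Besides ADGRG1, the adhesion receptors brighter than the median gene were in subfamilies L, A, B and E. The latrophilins of subfamily L bind teneurins and FLRT proteins across synapses. ADGRL2 had the brightest receptor probe set, at 8.40 and 8.37 in SSRP1 siRNA cells and 8.35 and 8.17 in control siRNA cells, and its log2 change was 0.12 (95% interval -0.15 to 0.39). ADGRL1 had a change of 0.11, with 7.36 and 7.51 in SSRP1 siRNA cells and 7.31 and 7.35 in control siRNA cells. ADGRL3 was dim, with a change of -0.16. The 95% intervals of all 3 latrophilins included 0, but with the mean of its probe sets ADGRL1 had a change of 0.29 (95% interval 0.026 to 0.55, unadjusted p = 0.036).

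All 3 genes of subfamily A lay below 0. ADGRA3, linked to Wnt and planar polarity signalling, had 6.81 and 6.93 with SSRP1 siRNA, against 7.16 and 7.06 with control siRNA, a log2 change of -0.24 ± 0.11 (SE, adjusted p = 0.428). ADGRA2, a co-receptor for WNT7 in brain vessels, had a change of -0.13, and ADGRA1 a change of -0.08, both with overlapping arrays. ADGRE5, known as CD97, which binds the complement regulator CD55, was the adhesion receptor that stood highest, at 7.16 and 6.93 in SSRP1 siRNA cells against 6.84 and 6.44 in control siRNA cells. Its log2 change was 0.41 ± 0.17 (SE, adjusted p = 0.403), and it ran from 0.21 to 0.61 without any 1 array. The subfamily B genes ADGRB1 and ADGRB3, which act at synapses, had changes of -0.03 and 0.003, and ADGRD1 and the very large ADGRV1 changes of 0.11 and 0.01, all 4 with overlapping arrays.

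**Figure D2:**
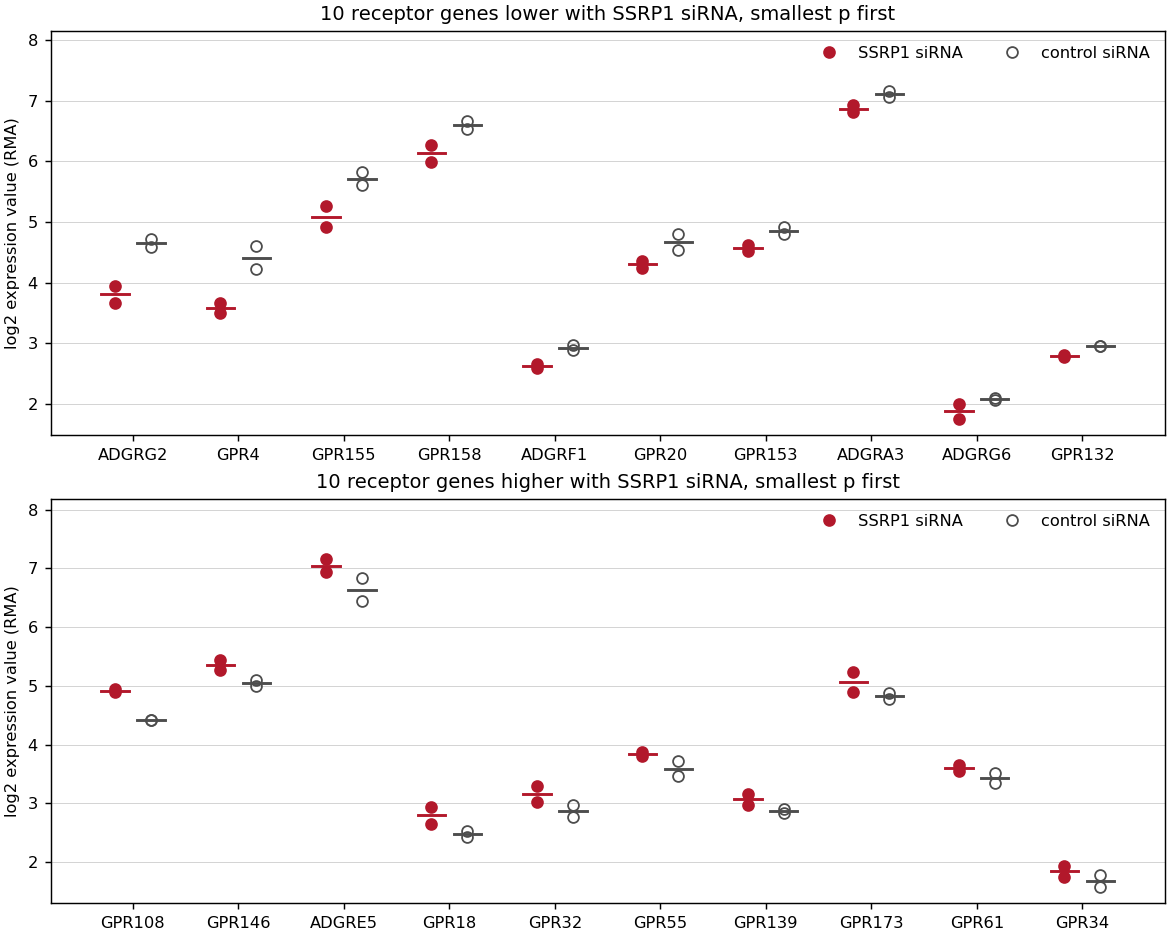
Log2 expression values on each array for the 10 receptor genes of smallest p that were lower (top) and the 10 that were higher (bottom) in SSRP1 siRNA cells, with SSRP1 siRNA as filled points left of control siRNA as open points and the bars at the group means. The pairs of ADGRG2, GPR4, GPR155 and GPR108 are the most clearly apart, and those of GPR34 overlap.

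GPR108 and GPR155 belong to the membrane proteins that carry a GPR name but are not established as G protein-coupled receptors. GPR108, a Golgi protein that many adeno-associated viruses need to enter cells, had log2 values of 4.94 and 4.90 in SSRP1 siRNA cells, against 4.42 on both control arrays. Both groups were tight and lay apart. The log2 change of 0.50 ± 0.10 (SE) was 1.42-fold (95% interval 1.20 to 1.67, unadjusted p = 0.0024, adjusted p = 0.173). The change stayed between 0.48 and 0.52 without any 1 array. When only genes as bright as the median gene or brighter were fitted, its limma adjusted p was 0.0398. That fit called 2.42% of the genes tested, and GPR108 passed in no other alternative.

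GPR155 lay the other way. This lysosomal membrane protein senses cholesterol and passes the signal to mTORC1. It had 5.26 and 4.92 in SSRP1 siRNA cells, against 5.82 and 5.61 in control siRNA cells, and the groups did not overlap. The log2 change was -0.63 ± 0.15 (SE, unadjusted p = 0.0068, adjusted p = 0.226), and it ran from -0.79 to -0.46 without any 1 array. The other genes of this kind were bright and near 0, with changes of 0.01 for GPR107, 0.11 for GPR180 and -0.06 for GPR137.

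GPR158, a class C receptor of neurons that binds glycine and holds RGS7 at the membrane, had 6.27 and 5.99 in SSRP1 siRNA cells, against 6.67 and 6.54 in control siRNA cells. Its log2 change was -0.47 ± 0.13 (SE, unadjusted p = 0.013, adjusted p = 0.279), with no overlap between the groups. A dimmer probe set of the same gene gave 5.11 and 4.90 with SSRP1 siRNA, against 5.26 and 5.15 with control siRNA, a change of -0.20 in the same direction. GPR179, the class C receptor of retinal bipolar cells, had a change of 0.16 with overlapping arrays. RGS7 itself, the partner of GPR158, was not among the RGS genes with an unadjusted p under 0.05. Its probe set was dim, with a mean of 1.75, so a change in it could be missed.

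**Figure D3:**
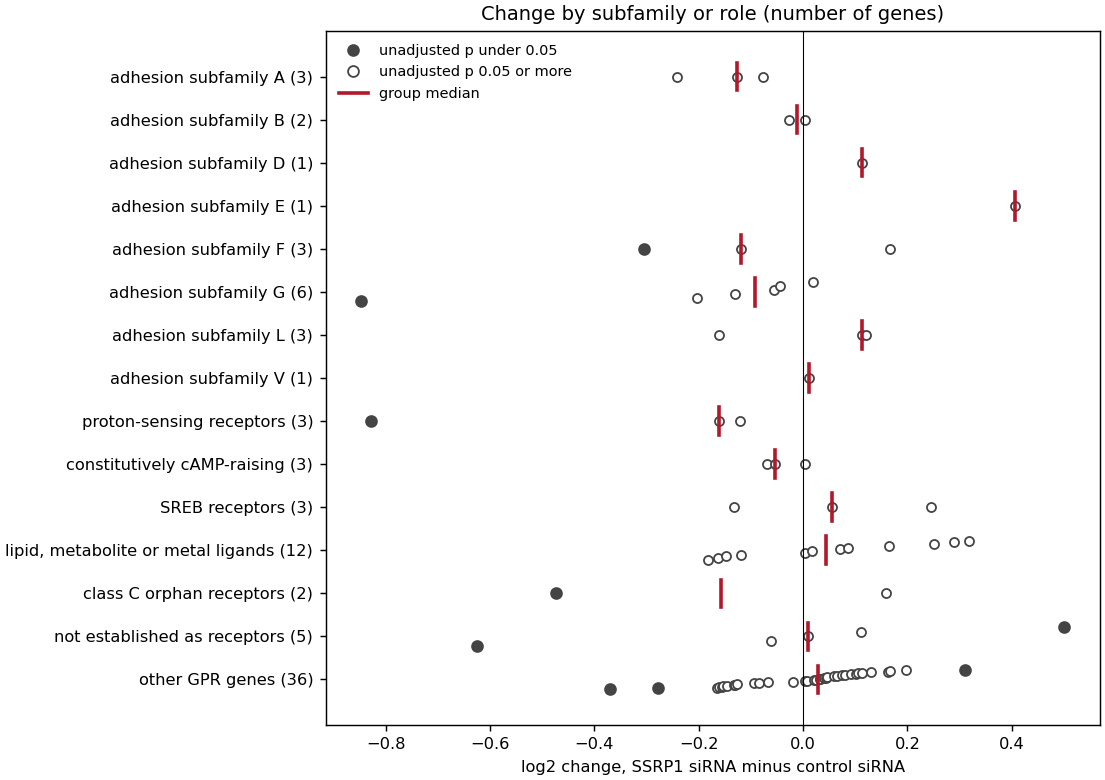
Log2 change (SSRP1 siRNA minus control siRNA, horizontal axis) of each of the 84 receptor genes by subfamily or role, with filled points for an unadjusted p under 0.05 and a red bar at the group median. Every group with more than 3 genes has points on both sides of 0, and ADGRG2 (-0.85) and GPR4 (-0.83) lie farthest left.

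Receptors that hold cyclic AMP high without a ligand lay near 0. GPR3, GPR6 and GPR12, which keep oocytes arrested or act in neurons, had log2 changes of -0.05, 0.004 and -0.07, all with overlapping arrays, and GPR3 and GPR6 were among the brighter probe sets, with means of 6.38 and 5.62. The SREB receptors, highly conserved orphans of the brain, had changes of 0.24 (GPR173), 0.06 (GPR27) and -0.13 (GPR85). GPR173 had 4.89 and 5.24 in SSRP1 siRNA cells, against 4.77 and 4.87 in control siRNA cells, and its change was 0.07 without SSRP1 siRNA replicate 2.

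Receptors with reported lipid, metabolite or metal ion ligands were all dim, with means of 1.61 to 3.72, and 8 of 12 lay above 0. GPR18, a receptor of lymphocytes, had 2.94 and 2.66 in SSRP1 siRNA cells, against 2.43 and 2.53 in control siRNA cells, a log2 change of 0.32 ± 0.13 (SE, adjusted p = 0.403). GPR32, reported to bind resolvin D1, had a change of 0.29 with 3.02 and 3.30 in SSRP1 siRNA cells against 2.98 and 2.76 in control siRNA cells. GPR55, which responds to lysophosphatidylinositol, had a change of 0.25, but its dimmer probe set had one of -0.08. GPR34, a receptor for lysophosphatidylserine, had a change of 0.17 with overlapping arrays. The other 8 lay between -0.18 (GPR31) and 0.09 (GPR39).

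The other 36 GPR genes had a median log2 change of 0.03, with 22 above 0 and 14 below. GPR20, a constitutively Gi-coupled orphan, had 4.36 and 4.25 in SSRP1 siRNA cells, against 4.80 and 4.54 in control siRNA cells, a change of -0.37 ± 0.13 (SE, adjusted p = 0.347). GPR153, an orphan of the brain, had 4.62 and 4.53 in SSRP1 siRNA cells, against 4.91 and 4.80 in control siRNA cells, a change of -0.28 ± 0.11 (SE, adjusted p = 0.381). GPR146, which acts on cholesterol output in the liver, had 5.45 and 5.27 in SSRP1 siRNA cells, against 4.99 and 5.10 in control siRNA cells, a change of 0.31 ± 0.11 (SE, adjusted p = 0.367). In all 3 the groups did not overlap. GPR139, an orphan of the habenula, and GPR61 had changes of 0.20 and 0.17. The other 31 genes of this group lay between -0.17 and 0.16.

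Of the 6 receptor genes with a pair of probe sets, ADGRL1, GPR146, GPR158 and GPR61 had the same sign in both. In GPR55 and GPR65 the signs differed. The dimmer probe set of ADGRL1 had 4.33 and 4.24 in SSRP1 siRNA cells, against 3.70 and 3.95 in control siRNA cells, a log2 change of 0.46 where the brighter one had 0.11. GPR61 likewise had 0.45 in its dimmer probe set and 0.17 in the brighter one.

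The nearest measured protein-coding genes on either side, by the order of genes in the GRCh38.p14 annotation, did not pass the test either. Beside ADGRG2 these were SCML2 (log2 change 0.13) and PDHA1 (0.005), beside GPR4 VASP (0.19) and EML2 (-0.28), and beside GPR155 SCRN3 (0.26) and CHN1 (0.05). GPR158 lay between THNSL1 (0.16) and MYO3A (0.25), and GPR108 between C3 (0.003) and TRIP10 (-0.40). The largest of these values in size, TRIP10, ran opposite to GPR108 and had an adjusted p of 0.338.

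**Figure D4:**
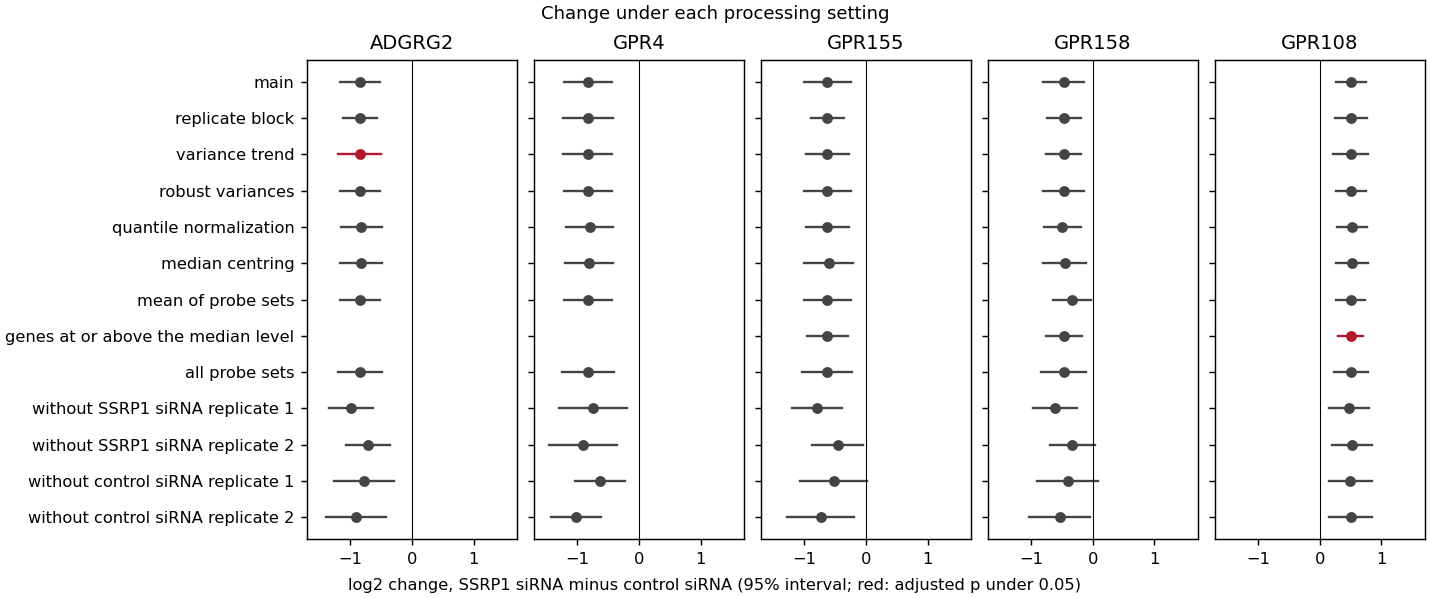
Log2 change (SSRP1 siRNA minus control siRNA) with its 95% interval for 5 receptor genes under the main processing and each alternative, in red where the adjusted p was under 0.05. ADGRG2, GPR4, GPR155 and GPR158 lie below 0 and GPR108 above 0 in every setting drawn, and only ADGRG2 with a variance trend and GPR108 among the brighter genes are red.

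Genes that carry or end the receptors' signal were described from fixed lists. RGS proteins switch off G protein alpha subunits, and 20 of 21 were measured. None passed the test, 4 were higher and 1 lower at an unadjusted p under 0.05 (6.56% and 6.03% of all genes), and the median log2 change was 0.02 beside -0.007 over all genes. RGS16, the member of smallest p, had 9.06 and 9.18 in SSRP1 siRNA cells, against 8.21 and 8.59 in control siRNA cells, a change of 0.72 ± 0.15 (SE, adjusted p = 0.195). The other RGS genes of that count, named after their values were seen, were RGS9 (0.98), RGS13 (0.74), RGS3 (0.43) and RGS10 (-0.49).

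Adenylyl cyclases make cyclic AMP and phosphodiesterases break it down. Of 20 such genes 14 were measured, 10 above 0 and 4 below, with a median of 0.12, none past the test and 2 higher at an unadjusted p under 0.05 (6.56% of all genes). PDE8A, a phosphodiesterase specific for cyclic AMP, had 6.48 and 6.54 in SSRP1 siRNA cells, against 5.99 and 6.01 in control siRNA cells, a log2 change of 0.52 ± 0.10 (SE, adjusted p = 0.169), and PDE7A had one of 0.34. Of 16 cyclic AMP response target genes 11 were measured, with a median of -0.12, none past the test, and 1 higher and 3 lower at an unadjusted p under 0.05 (6.56% and 6.03% of all genes). PER1, a clock gene induced by cyclic AMP, had 6.50 and 6.20 in SSRP1 siRNA cells, against 7.13 and 6.95 in control siRNA cells, a change of -0.69 ± 0.14 (SE, adjusted p = 0.183). SIK1 (-0.41), VGF (-0.48) and DUSP1 (0.33), named after their values were seen, were the others.

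Receptor kinases and arrestins end signalling at the receptor. Of 11 such genes 6 were measured and none had an unadjusted p under 0.05, where 12.6% of all genes did. GRK4 had the smallest p, with a log2 change of -0.35. Of 15 G protein alpha subunits 2 had a named probe set, GNAS at -0.03 and GNA12 at 0.03, so the others were not analysed. Of 18 ligands and partners of adhesion receptors 4 were measured, none past the test, and the Nogo receptor gene RTN4R had the smallest p at -0.33. G protein beta and gamma subunits and the CELSR adhesion receptors had no named probe set in the annotation used, so they were not analysed here. In none of these lists did a gene pass the limma test, where 0.0945% of all genes did.

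**Figure D5:**
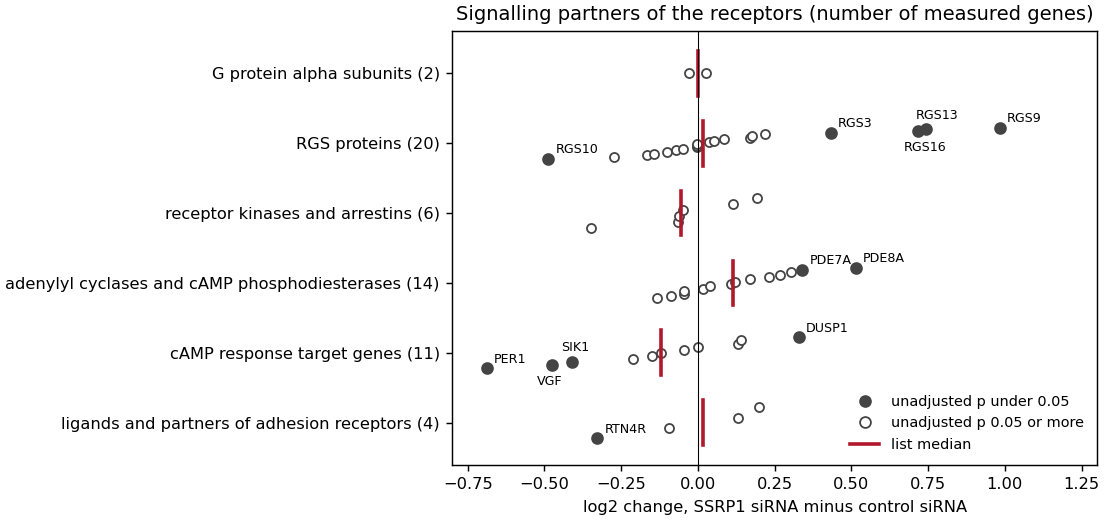
Log2 change (SSRP1 siRNA minus control siRNA, horizontal axis) of the measured genes of 6 signalling lists, with filled, named points for an unadjusted p under 0.05 and a red bar at the list median. RGS9 (0.98), RGS13 (0.74) and RGS16 (0.72) lie farthest to the right and PER1 (-0.69) farthest to the left.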

How the data were processed

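Gene expression was measured in 4 samples, 1 array each, from 100 ng of RNA as the labels' protocols state. The deposited values are log2 expression per probe set, and the authors used RMA according to the submitters' processing notes. Neither its version nor the probe set definition is given in the sources used here. The log2 scale is inferred from a range of 0.50 to 12.8. RMA usually includes quantile normalization, under which a common shift of every transcript cannot be seen.

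Gene names came from the platform annotation (15835 of 46255 with 1 symbol, 0 with several, 30420 unnamed here), and all gene IDs matched RefSeq of GRCh38.p14, with 0 symbols changed. For each of 14812 genes the probe set with the highest mean was used. Samples were grouped by their titles. The test was limma 3.58.1 in R 4.3.3 (lmFit, eBayes without trend, no filter, no block, 2 residual and 3.79 prior degrees of freedom), SSRP1 siRNA minus control siRNA, two-sided, with Benjamini-Hochberg adjustment over all genes. It was tested on simulated data. Single genes were named by rule: ADGRG2 and GPR4, the 10 of smallest p in each direction, the 5 brightest and the 1 of smallest p in each of 15 subfamilies or roles (29 receptor genes), and from each other list the 1 of smallest p. Others named were chosen after their values were seen. The receptor genes and all lists were chosen with earlier results of these data known. Promoters are from RefSeq, for 65 of the 84 genes. Figures were drawn in Python 3.11.15. The alternatives tried were a block for the replicate number, an intensity trend in the variance, robust variances, quantile normalization, median centring, averaged probe sets, brighter genes alone, all probe sets, each array left out and an adjusted p under 0.1.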

Additional observations from a re-analysis of the deposited data

How the results depend on the processing

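No receptor gene passed limma's test in any fit but 2: with a variance trend the count was 1 (ADGRG2, adjusted p = 0.0475) in a fit that called 1.45% of all genes, and when only the brighter genes were fitted, 23 of them receptor genes, it was 1 (GPR108, adjusted p = 0.0398) in a fit that called 2.42% of the genes tested. In the main fit the count was also 0 at an adjusted p under 0.1. In other fits further limma adjusted p values lay under 0.1. These were 0.0971 for ADGRG2 with the replicate block, 0.0736 for GPR4 with a variance trend and 0.0746 for GPR155 among the brighter genes. The count at an unadjusted p under 0.05 was 4 without control siRNA replicate 1 and ran from 4 to 9 over the arrays left out, and the median log2 change of the receptor genes ran from -0.025 to -0.006 there. The SSRP1 change of -1.95 had an adjusted p of 0.0569 with the replicate block, 0.0512 with robust variances and 0.144 over all probe sets, and ran from -2.17 to -1.72 over the arrays left out, none of which kept the call with 1 residual degree of freedom. Samples with the same replicate number deviated from their group means together only weakly. The correlation of these deviations over all genes was 0.114, with only a pair of replicate numbers to compare. The labels do not say that a number marks a shared batch. With the block 10 receptor genes had an unadjusted p under 0.05, as did 13.9% of all genes, and 0 passed. Over all probe sets 0 genes passed, so no receptor gene could change side of the threshold there. With an array left out, 1 residual degree of freedom remained and not even SSRP1 kept its call. Part of the next count was therefore fixed in advance. Of 332 values of the 29 named receptor genes under the alternatives, 322 kept direction and side of the threshold. Reversals were seen in 8, in genes near 0: over the arrays left out ADGRB1 ran from -0.11 to 0.053, ADGRD1 from -0.075 to 0.30, ADGRV1 from -0.001 to 0.026, GPR12 from -0.15 to 0.013 and GPR107 from -0.065 to 0.084, and GPR107 was -0.0068 after quantile normalization. The cause was not tested.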
